A study of Mus musculus with 6 samples.

Results

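The cytosolic ribosomal protein genes were taken as all genes of the deposited table whose symbol is Rpl or Rps followed by a number, with or without a final a, x or l, together with Rplp0, Rplp1, Rplp2 and Rpsa. This rule used names only and found 81 of 21956 genes, 49 named for the large ribosomal subunit and 32 for the small subunit. Expression was measured by RNA sequencing in 3 libraries labelled VE and 3 labelled Aalter, all from mouse material labelled as lung. The labels do not spell out VE or Aalter, and give no strain, age, genotype, dose or time. The series title speaks of alpha tocopherol (a vitamin E compound) in an allergic airway setting, so the comparison asks how transcripts of VE libraries differ from those of Aalter libraries. No untreated group was analysed here. It is not stated whether each library is a separate mouse, and the p-values therefore describe the spread among these samples, which may be technical.

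The ribosome translates messenger RNA into protein, and its large and small subunits are each built from ribosomal RNA and a set of ribosomal proteins that is needed in near-equal amounts. Ribosomal protein messages are among the most abundant in a cell. Most of them begin with a cytosine followed by a run of pyrimidines, the 5′ terminal oligopyrimidine (TOP) motif, through which the kinase complex mTORC1 and the RNA-binding protein LARP1 control their translation and stability. Resting leukocytes hold them in reserve, and activated lymphocytes make more ribosomes as they grow.

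The 6 libraries held between 11617074 and 16205053 estimated counts. Levels are given as CPM, counts scaled to a common library total, with the library size multiplied by the TMM factor, a scaling that centres most genes. On the first principal component of all tested genes, which held 66.7% of the variance, the VE libraries scored between -40.2 and -36.0. Aalter-2 and Aalter-3 scored 61.4 and 56.0, while Aalter-1 lay apart from them at -2.34, nearer to VE. Counts of calls and medians are therefore given with and without Aalter-1. The surfactant gene Sftpc of alveolar type 2 cells was low, between 13.4 and 18.3 CPM in VE and between 12.6 and 14.4 CPM in Aalter. With it, 5 lung epithelial genes summed to between 128 and 140 CPM in VE and between 204 and 375 CPM in Aalter. S100a9, a gene of neutrophils, stood between 16582 and 20619 CPM in VE and between 11675 and 13350 CPM in Aalter.

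The start regions of 6 of these genes are printed so that pyrimidine letters around the annotated start, where the TOP motif would lie, can be compared between genes whose levels are described afterwards. They are RefSeq sequence of build GRCm38.p6, 40 bases before and 20 from the annotated start, with CTTTC on the sense strand or CCGGAAG on either strand in capitals. They include the stalk gene Rplp2 (chr7:141447611-141447670, plus strand), the small subunit genes Rps26 (chr10:128626487-128626546, minus strand), Rps27 (chr3:90213629-90213688, minus strand) and Rps6 (chr4:86857348-86857407, minus strand), the large subunit gene Rpl4 (chr9:64173347-64173406, plus strand) and the paralog Rps27l (chr9:66946046-66946105, plus strand).
Rplp2: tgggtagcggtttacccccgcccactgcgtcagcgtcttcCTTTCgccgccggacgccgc
Rps26: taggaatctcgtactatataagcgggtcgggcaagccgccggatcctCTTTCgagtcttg
Rps27: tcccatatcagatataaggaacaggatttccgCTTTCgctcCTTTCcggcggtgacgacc
Rps6: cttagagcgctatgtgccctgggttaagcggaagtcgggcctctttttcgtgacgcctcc
Rpl4: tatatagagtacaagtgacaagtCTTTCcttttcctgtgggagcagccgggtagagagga
Rps27l: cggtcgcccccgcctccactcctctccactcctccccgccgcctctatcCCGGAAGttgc
In Rplp2, CTTTC begins at the RefSeq start itself, and in Rps27 it occurs on both sides of the RefSeq start. The RefSeq start lay 281 bases from the gene start of the GENCODE annotation in Rplp2 and 241 bases in Rps26. This distance was 45 bases in Rps6, 12 in Rpl4, 3 in Rps27 and 0 in Rps27l. The place of the motif relative to the start thus depends on the annotation, above all in Rplp2 and Rps26. In Rpl4, CTTTC lies before the annotated start. Rps6 holds a longer run of pyrimidines at the start but not CTTTC, and Rps27l does not hold CTTTC in the stretch shown.

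The 250 bases before and 50 bases after the start could be read for 60 of the 81 ribosomal protein genes and for 9691 tested genes. CTTTC on the sense strand, between 20 bases before and 30 after the start, occurred in 20 of the 60 (33.3%) against 5.62% of the tested genes. CCGGAAG, the core that ETS-family factors such as GABP recognise, occurred on either strand of the whole window in 24 of the 60 ribosomal protein genes and 18.7% of the tested genes. CCATNTT, the core of the YY1 site, was found on either strand in 18 of the 60 and 15.5%. The E-box CACGTG, which MYC can bind, was found in 8.33% and 9.99%, and its share was thus about that of the tested genes. TATAAA on the sense strand was found in 8.33% and 4.91% over the whole window. Between 20 bases before and 30 after the start it was found in 5.0% (3 of the 60) and 0.516%. CTTTC and the other strand of CCGGAAG, which begins with CTTCC, can share 1 base, and a match describes letters in this window rather than a bound site.

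Messages of ribosomal proteins were abundant, and their share of the counts overlapped between VE and Aalter. They took 7.95%, 7.75% and 6.70% of all counts in libraries VE-1, VE-2 and VE-3, against 7.13%, 9.51% and 9.90% in libraries Aalter-1, Aalter-2 and Aalter-3. The means were 7.47% ± 0.669 in VE and 8.85% ± 1.496 in Aalter (SD, n = 3 each). All VE libraries lay below Aalter-2 and Aalter-3, but the groups overlapped because Aalter-1 lay below VE-1 and VE-2. The difference of -1.38 percentage points was smaller than the SD of Aalter. Without Aalter-1 it was -2.24 percentage points. This share was described and not tested.

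Of the 81 genes 79 passed the filter on low counts and were tested, 47 of the large and 32 of the small subunit. Only Rps27l passed, and upward, at an adjusted p under 0.05 in the quasi-likelihood test of edgeR, with p adjusted by Benjamini-Hochberg over 12551 genes, the test behind every adjusted p given here. In the same test 12.8% of all genes were called higher and 19.5% lower in VE. In the lower direction 0 ribosomal protein genes passed in edgeR, and 0 had an unadjusted p under 0.05. DESeq2 and limma-voom also called 1 higher and 0 lower, where they called 15.7% and 14.9% of all genes higher and 20.2% and 17.8% lower. The smallest adjusted p after that of Rps27l was 0.193, for Rpsa. The median log2 fold change of VE over Aalter was -0.12 over the ribosomal protein genes and 0.023 over all tested genes. It was -0.075 for the large subunit, where 35 of 47 genes were below 0, and -0.14 for the small subunit, where 26 of 32 were. A log2 fold change within 0.2 of 0 was seen in 54 genes.

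The genes varied together from library to library, and the order of the libraries cut across the groups. Relative to each gene's own mean over the 6 libraries, the median log2 level was 0.060 in VE-1, 0.033 in VE-2 and -0.23 in VE-3, against -0.32 in Aalter-1, 0.19 in Aalter-2 and 0.26 in Aalter-3. Aalter-1 was the lowest of the 6 libraries in 65 of 79 genes, and Aalter-3 the highest in 59. Within VE, VE-3 was the lowest library in 77 genes. Aalter-1 lay below both other Aalter libraries in 77 genes and below all VE libraries in 66. Aalter-2 and Aalter-3 both lay above all VE libraries in 57 of the 79 genes, a pattern found in 35.8% of all tested genes.

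**Figure D1:**
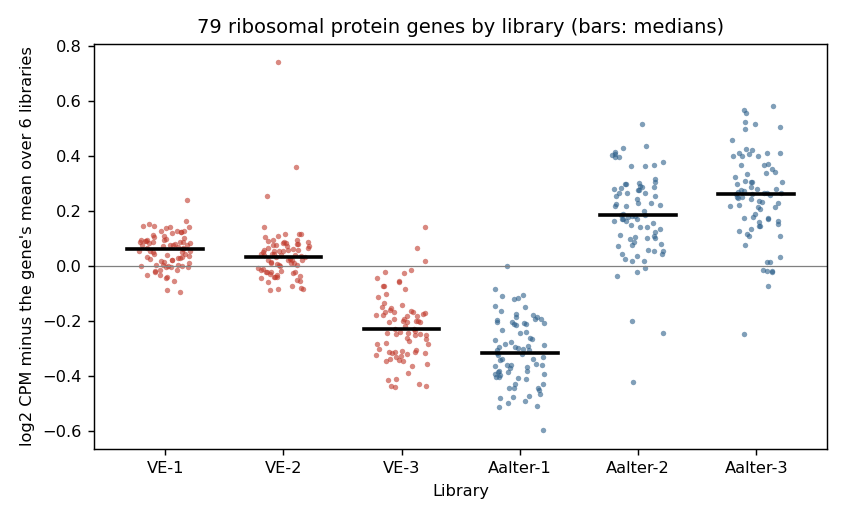
Levels of 79 ribosomal protein genes in each library, as log2 CPM minus the gene's mean over the 6 libraries, with VE libraries on the left and Aalter libraries on the right; each point is a gene and each bar the median. The medians run from -0.32 in Aalter-1 to 0.26 in Aalter-3, and VE-3 lies below VE-1 and VE-2.

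With Aalter-1 left out, 46 of 80 tested ribosomal protein genes were called lower in VE and 1, Rps27l, was called higher. In that fit 28.5% of all tested genes were lower and 27.8% higher. The lower calls took in 25 of 48 genes of the large subunit and 21 of 32 of the small subunit, and the median log2 fold change was -0.26. For the 76 genes with a mean over 100 CPM, the log2 fold changes ran from -0.42 to 0.16 with a median of -0.13 in all 6 libraries. Without Aalter-1 they ran from -0.70 to 0.12 with a median of -0.27. Leaving out Aalter-2 or Aalter-3 instead gave family medians of -0.047 and 0.0016 with 0 genes called in either direction. Calls were fewer over all genes too, with 0.853% higher and 6.29% lower without Aalter-2, and 0.427% higher and 4.85% lower without Aalter-3. Leaving out VE-1, VE-2 or VE-3 gave family medians of -0.17, -0.16 and -0.054, also with 0 ribosomal protein genes called. In these fits 0.204%, 0.0154% and 0.803% of all genes were higher and 3.56%, 1.36% and 6.22% lower. The size of the median and the number of calls thus rested on which libraries were kept, and without Aalter-3 the median was near 0.

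**Figure D2:**
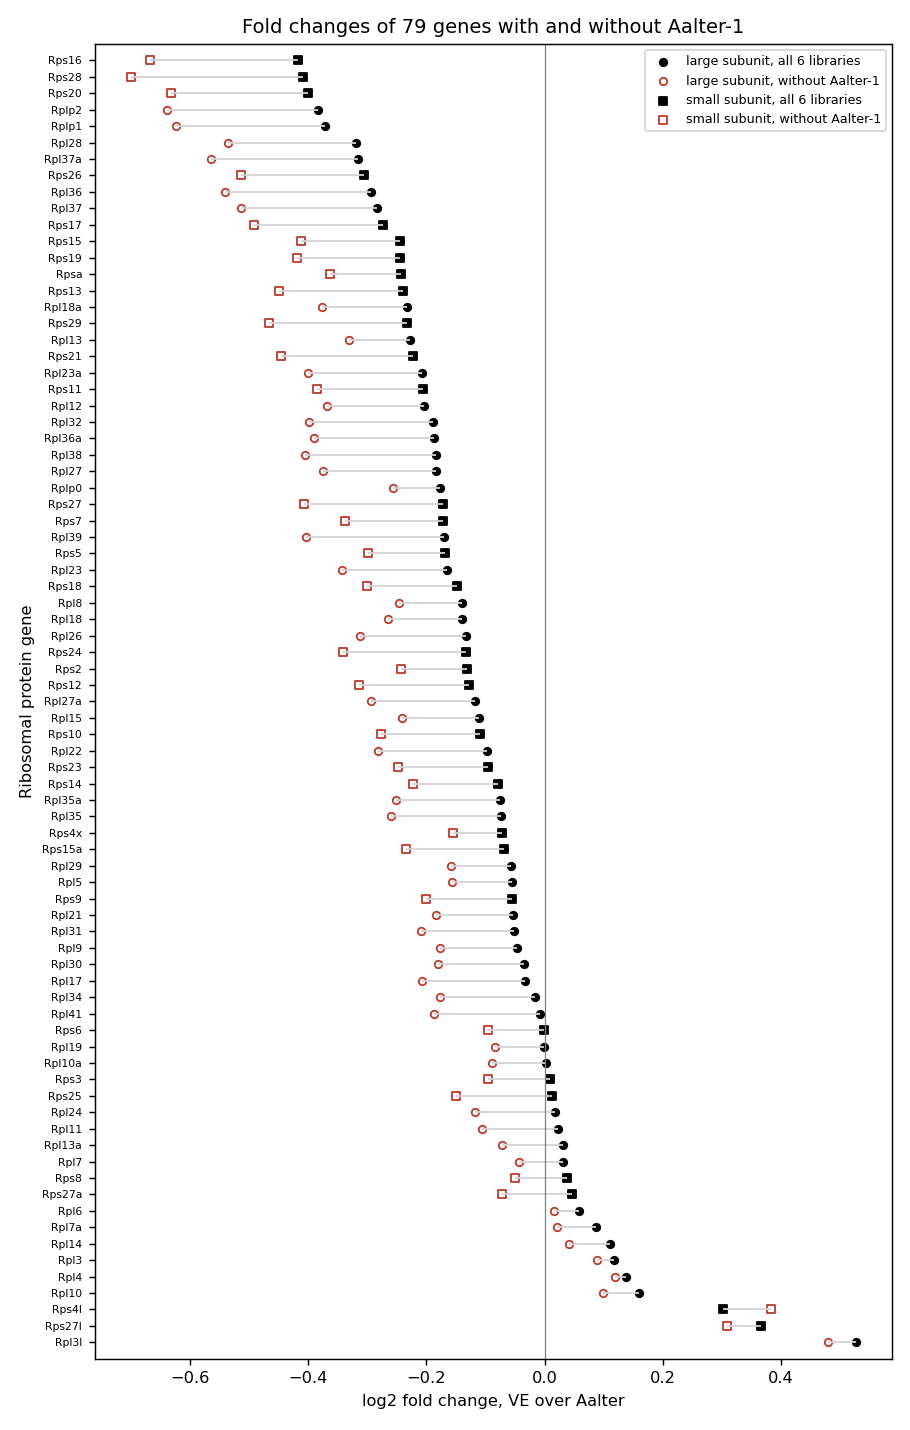
Log2 fold change of VE over Aalter for 79 ribosomal protein genes, in all 6 libraries (filled) and without Aalter-1 (open), circles for the large and squares for the small subunit, in the order of the first value. Leaving out Aalter-1 moves most genes further below 0. Rps4l, Rps27l and Rpl3l stay above it, as do Rpl4, Rpl10, Rpl3, Rpl14, Rpl7a and Rpl6, at between 0.016 and 0.12.

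Among proteins of the small subunit, Rps16, Rps28 and Rps20 had the lowest log2 fold changes. Rps16, whose protein lies near the site where the transfer RNA is read, had 1286, 1253 and 996 CPM in VE and 975, 1795 and 1950 CPM in Aalter. The VE libraries lay between Aalter-1 below and the other Aalter libraries above. The log2 fold change of Rps16 was -0.42 ± 0.26 (SE, adjusted p = 0.244), and -0.67 (adjusted p = 0.000729) without Aalter-1. Rps16 (ENSMUSG00000037563) lies on chromosome 7 from 28350652 to 28353155 in mm10. Rps28 had 423, 398 and 311 CPM in VE and 277, 599 and 627 CPM in Aalter, a log2 fold change of -0.41 ± 0.30 (adjusted p = 0.324), and -0.70 without Aalter-1. Rps20 had 822, 792 and 632 CPM in VE and 640, 1121 and 1203 CPM in Aalter, a log2 fold change of -0.40 ± 0.24 (adjusted p = 0.230). Aalter-1 again set the overlap in Rps28, and in Rps20 both Aalter-1 and VE-3 were low.

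Rps24 and Rps27 had the highest mean levels of the whole family per kilobase of transcript, at 5025 and 3509 CPM per kilobase. Rps24 had 2766, 2658 and 2128 CPM in VE and 1893, 3187 and 3198 CPM in Aalter, with a log2 fold change of -0.13 (adjusted p = 0.665). Rps27, whose start region carries CTTTC on both sides, had 1301, 1247 and 868 CPM in VE and 825, 1446 and 1577 CPM in Aalter, with a log2 fold change of -0.17 (adjusted p = 0.643). In both genes the VE libraries stood between Aalter-1 and the other Aalter libraries.

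Rps6 encodes the substrate of the S6 kinases, whose phosphorylation is a common readout of mTORC1 activity. It had 2067, 2004 and 1709 CPM in VE and 1666, 2038 and 2081 CPM in Aalter. The log2 fold change was -0.0015 ± 0.13 (SE), and the ranges overlapped almost fully. Rps19, which is mutated in Diamond-Blackfan anaemia in humans, had 630, 619 and 506 CPM in VE and 513, 735 and 829 CPM in Aalter, with a log2 fold change of -0.24 (adjusted p = 0.342). Rps27a, made as a fusion with ubiquitin, had 1186, 1165 and 948 CPM in VE and 880, 1100 and 1213 CPM in Aalter, with a log2 fold change of 0.047. Rpsa, a small subunit protein also known as the laminin receptor, had 1868, 1880 and 1773 CPM in VE and 1798, 2379 and 2360 CPM in Aalter. The log2 fold change of Rpsa was -0.24 ± 0.13 (SE, adjusted p = 0.193), and -0.36 (adjusted p = 0.000554) without Aalter-1.

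The stalk of the large subunit, which recruits elongation factors, is built from the proteins of Rplp0, Rplp1 and Rplp2. Rplp2 (ENSMUSG00000025508, chromosome 7 from 141447370 to 141451585) had 727, 703 and 538 CPM in VE and 523, 966 and 1081 CPM in Aalter, a log2 fold change of -0.38 ± 0.27 (adjusted p = 0.300). Rplp1 had 1219, 1187 and 944 CPM in VE and 888, 1666 and 1779 CPM in Aalter, a log2 fold change of -0.37 ± 0.26 (adjusted p = 0.299). Rplp0, the base of the stalk and a frequent reference gene, varied less. It had 2076, 2077 and 1887 CPM in VE and 2013, 2402 and 2414 CPM in Aalter, a log2 fold change of -0.18 ± 0.12 (adjusted p = 0.268). Counts of Rplp2 relative to Rplp0 were 35.0%, 33.9% and 28.5% in VE and 26.0%, 40.2% and 44.8% in Aalter. The stalk genes thus moved unequally between libraries, and the groups overlapped in all 3.

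Among the other proteins of the large subunit, Rpl13a, which also acts in the translational silencing of inflammatory messages, and Rpl23a stood highest per kilobase. Rpl13a had 2359, 2398 and 2158 CPM in VE and 1918, 2357 and 2495 CPM in Aalter, with a log2 fold change of 0.031. Rpl23a had 1703, 1649 and 1308 CPM in VE and 1277, 2047 and 2056 CPM in Aalter, with a log2 fold change of -0.21 (adjusted p = 0.462). Rpl5 and Rpl11, whose proteins bind MDM2 when ribosome assembly is disturbed, had log2 fold changes of -0.056 and 0.022. Rpl5 lay between 1418 and 1722 CPM in VE and between 1426 and 1822 CPM in Aalter, and Rpl11 between 742 and 882 CPM in VE and between 665 and 925 CPM in Aalter. The range of VE lay within that of Aalter for Rpl11 and nearly so for Rpl5. Rpl22, needed for the development of alpha-beta T cells in mice, lay between 266 and 326 CPM in VE and between 235 and 375 CPM in Aalter. Rpl38, which is needed for the translation of Hox messages in mouse embryos, lay between 293 and 365 CPM in VE and between 258 and 469 CPM in Aalter. Their log2 fold changes were -0.097 and -0.18, with adjusted p-values of 0.716 and 0.550.

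At the other end stood large subunit genes that were nearly level over the libraries, named here after their values were seen. Rpl4 had 2348, 2305 and 2050 CPM in VE and 1976, 2095 and 2021 CPM in Aalter, with a log2 fold change of 0.14 ± 0.10 (SE, adjusted p = 0.331). Rpl3, whose protein lies close to the peptidyl transferase centre, had 1389, 1338 and 1248 CPM in VE and 1169, 1240 and 1255 CPM in Aalter, with a log2 fold change of 0.12 (adjusted p = 0.379). Rpl10 was higher in every VE library, with 623, 646 and 595 CPM against 507, 583 and 578 CPM in Aalter, but its log2 fold change of 0.16 ± 0.10 did not pass (adjusted p = 0.250). The pseudogene Rpl10-ps3 was counted at a like level, 689, 651 and 616 CPM in VE and 587, 728 and 843 CPM in Aalter. Reads of Rpl10 may therefore have been split between the copies, and its value is uncertain.

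**Figure D3:**
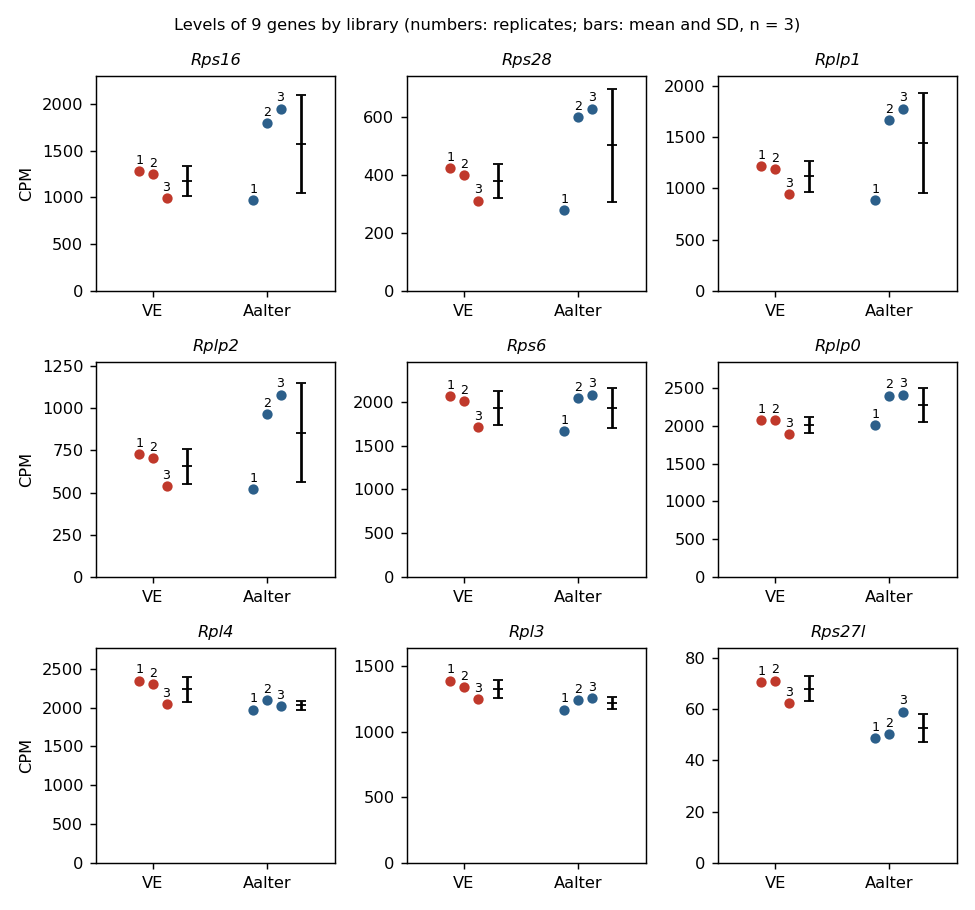
CPM of 9 ribosomal protein genes in each VE library (red, left) and each Aalter library (blue, right), numbered by replicate, with the mean and SD of 3 libraries beside them. In Rps16, Rps28, Rplp1 and Rplp2, Aalter-1 lies far below the other Aalter libraries, while Rpl4 and Rpl3 are nearly level; Rps27l is higher in every VE library.

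The proportions within the family were therefore examined with the summed ribosomal protein counts as library size, so that each gene was read relative to the family total. In all 6 libraries 0 of the 79 genes passed in either direction in edgeR, and 1 had an unadjusted p under 0.05, where this scaling called 0.255% of all genes higher and 8.17% lower. Without Aalter-1, 11 genes were higher and 11 lower relative to the family, where 36.9% of all genes were called higher and 16.0% lower. The higher ones included 8 of the large subunit, among them Rpl4 (log2 fold change 0.38), Rpl10 (0.37), Rpl3 (0.35) and Rpl14 (0.30). The lower ones included 6 of the large subunit and 5 of the small subunit, among them Rps28 (-0.45), Rps16 (-0.41), Rps20 (-0.38), Rplp2 (-0.38) and Rplp1 (-0.37). The median transcript length was 914 bases among the higher genes and 558 bases among the lower ones. The summed CPM of the large subunit relative to the small subunit was 1.34, 1.34 and 1.37 in the VE libraries 1 to 3, and 1.36, 1.29 and 1.26 in the Aalter libraries 1 to 3.

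Several symbols of the rule are paralogs with their own tissue pattern. Rps27l (ENSMUSG00000036781, chromosome 9 from 66946086 to 66949516), a p53-induced paralog of Rps27, had 70.4, 71.1 and 62.3 CPM in VE and 48.5, 50.4 and 59.0 CPM in Aalter. The groups did not overlap, and Rps27l rose by a log2 fold change of 0.37 ± 0.11 (SE, adjusted p = 0.0383). Without Aalter-1 the log2 fold change was 0.31 (adjusted p = 0.0106). Leaving out any other library ended the call, with adjusted p-values between 0.0624 and 0.155. In those fits between 0.0154% and 0.853% of all genes were called higher, against 12.8% in all 6 libraries. Scaling by library size alone also ended the call (adjusted p = 0.117), where 3.94% of all genes were higher. Removing the trends on transcript length and GC content turned the sign to -0.59 (adjusted p = 0.0726). Its counts were 5.41%, 5.70% and 7.18% of those of Rps27 in VE and 5.88%, 3.48% and 3.74% in Aalter.

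The other paralogs were scarce. Rps4l, annotated as a transcribed processed pseudogene and thus open to reads from Rps4x, had 6.09, 8.13 and 6.99 CPM in VE and 6.33, 5.50 and 5.33 CPM in Aalter, with a log2 fold change of 0.30 (adjusted p = 0.195). Rpl3l, which replaces Rpl3 in heart and skeletal muscle, had 21, 29 and 21 counts in VE and 19, 13 and 24 in Aalter, with a log2 fold change of 0.53 (adjusted p = 0.220). Rpl39l, a testis-enriched paralog of Rpl39, had 10, 3 and 13 counts in VE and 10, 4 and 7 in Aalter and was not tested. Rpl10l, which stands in for the X-linked Rpl10 during male meiosis, had 0 counts in all libraries. A count of 0 allows up to 3 counts, or between 0.205 and 0.251 CPM in VE libraries and between 0.180 and 0.250 CPM in Aalter libraries, for counting error only. CPM values that do not overlap between groups were found for Rpl10, Rps27l and Rpl3l, all higher in VE, against 25.6% of tested genes with all VE libraries above and 26.3% with all VE libraries below. For Rpl3l this was nearly a tie, with 1.438 CPM in VE-3 and 1.437 CPM in Aalter-3, and its raw counts overlapped.

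Ribosomal protein messages are short, with a median transcript length of 774 bases against 2623 bases over all tested genes, and fold changes in these libraries varied with length. Among other genes with transcripts under 600 bases the median log2 fold change was 0.76 (383 genes), while that of 22 ribosomal protein genes in this range was -0.20. From 600 to 1000 bases it was 0.20 for 815 other genes and -0.078 for 39 ribosomal protein genes, and from 1000 to 2000 bases 0.12 and -0.044. Immunoglobulin genes, 262 in the table before the filter on low counts, were not left out of these medians or of the trends below. Their part in either was not tested. With each library's trends on length and GC content removed, the median of the ribosomal protein genes became -0.39, and -0.99 under 600 bases. Rps26 alone was then called lower (log2 fold change -0.91, adjusted p = 0.0485) and 0 were called higher, where 12.5% of all genes were lower and 13.4% higher. With the length trend alone removed, 9 were called lower, against 14.9% of all genes. In each length range under 2000 bases the ribosomal protein genes thus had the lower median, and its distance from 0 depended on whether length is allowed for.

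**Figure D4:**
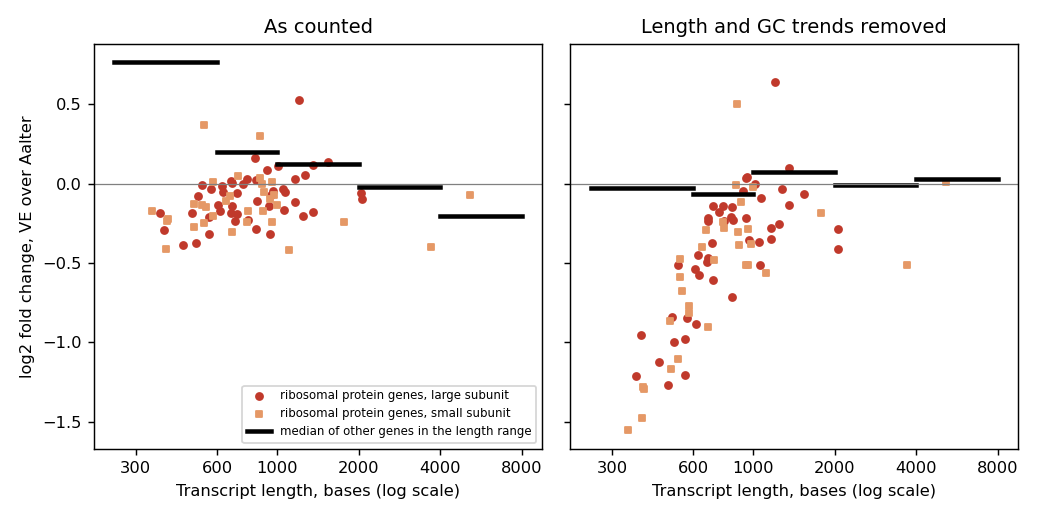
Log2 fold change of VE over Aalter against transcript length (log scale) for 79 ribosomal protein genes, circles for the large and squares for the small subunit, as counted (left) and with length and GC trends removed (right); black bars are medians of other genes in each length range. Under 600 bases the other genes lie at 0.76 as counted and the ribosomal protein genes at a median of -0.20.

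Genes that do not fall under the naming rule but encode ribosomal or closely related proteins gave like values. Of 8 such genes 0 passed in edgeR, DESeq2 or limma-voom and 0 had an unadjusted p under 0.05, and their median log2 fold change was -0.047. Without Aalter-1 1 was lower and the median was -0.13, and with length and GC trends removed 2 were lower and the median was -0.43. Of all genes 12.8% were higher and 19.5% lower in edgeR on all 6 libraries. Without Aalter-1 these shares were 27.8% and 28.5%, and with the trends removed 13.4% and 12.5%. Rps3a1 had 2171, 2101 and 1715 CPM in VE and 1735, 2279 and 2366 CPM in Aalter, a log2 fold change of -0.092. Fau, a fusion of a ubiquitin-like protein with a ribosomal protein, had a log2 fold change of -0.040. Rps27rt, a retrogene of Rps27, lay between 5.36 and 13.6 CPM in VE and between 6.15 and 24.1 CPM in Aalter, with a log2 fold change of -0.70 (adjusted p = 0.349). Of 3 tested pseudogenes of ribosomal proteins 0 passed in edgeR or limma-voom and 1 had an unadjusted p under 0.05. In DESeq2 1 was lower, beside 20.2% of all genes. Without Aalter-1 2 were lower, beside 28.5% of all genes. In edgeR on all 6 libraries Rpl9-ps6 had a log2 fold change of -0.82 (adjusted p = 0.0531) and Rps18-ps6 of -0.46.

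Other TOP messages and the translation factors had a median log2 fold change of -0.047 over 20 genes, of which 1 rose and 2 fell, beside 12.8% and 19.5% of all genes. Without Aalter-1, 3 were higher and 8 lower with a median of -0.13, beside 27.8% and 28.5% of all genes, and with length and GC trends removed the median was -0.20. The translocase gene Eef2 fell, with 1327, 1336 and 1478 CPM in VE against 1857, 2914 and 2819 CPM in Aalter (log2 fold change -0.87 ± 0.18, adjusted p = 0.0153). Pabpc1, which binds the poly(A) tail, fell to 650, 670 and 604 CPM in VE against 799, 1178 and 1099 CPM in Aalter (-0.68 ± 0.16, adjusted p = 0.0197). In both genes all VE libraries lay below all Aalter libraries, and Aalter-1 was the nearest to VE. Eef1a1, which delivers transfer RNA to the ribosome, had 15412, 15340 and 14307 CPM in VE and 12882, 13168 and 13047 CPM in Aalter, but did not pass (0.21, adjusted p = 0.159). Vim, whose message also carries a TOP motif, rose by 0.39 ± 0.11 (adjusted p = 0.0333). With length and GC trends removed Eef2 missed the threshold (adjusted p = 0.0573). Of 24 initiation factor genes 1 rose and 6 fell, among them Eif3b (-0.71 ± 0.16, adjusted p = 0.0194), a subunit of the eIF3 scaffold, and Eif4g1 (-0.79 ± 0.19, adjusted p = 0.0224), the scaffold of the cap-binding complex. The share that fell was near that of all genes, 19.5%. Without Aalter-1, 2 were higher and 11 lower. With length and GC trends removed 1 was higher and 0 were lower, beside 13.4% and 12.5% of all genes. The median log2 fold change then went further below 0, at -0.17 against -0.065 as counted.

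Several genes that control TOP messages were lower in VE. A list of 12 genes took in mTOR complex parts, substrates, regulators and TOP-binding proteins, and also Myc. Of these 0 rose and 7 fell in edgeR, DESeq2 and limma-voom alike, where 19.5%, 20.2% and 17.8% of all genes fell. At an unadjusted p under 0.05, 0 were higher and 7 lower, and the median log2 fold change was -0.52. Larp1, which binds TOP messages at the cap, fell to 37.6, 39.4 and 40.7 CPM in VE against 70.1, 100.7 and 93.6 CPM in Aalter (-1.17 ± 0.14, adjusted p = 0.00516). Tsc1, part of the complex that restrains mTORC1, fell to 11.5, 13.7 and 14.0 CPM in VE against 27.0, 29.3 and 30.3 CPM in Aalter (-1.14 ± 0.12, adjusted p = 0.00417). Myc, a transcription factor that drives ribosome production, had 9.67, 9.97 and 12.9 CPM in VE and 45.5, 243 and 230 CPM in Aalter, a log2 fold change of -3.99 ± 0.71 (adjusted p = 0.0166). In these 3 genes all VE libraries lay below all Aalter libraries, as in 26.3% of tested genes. The list held both activators of mTORC1 output, such as Mtor (-0.57) and Rptor (-1.21), and restrainers, such as Tsc1, Tsc2 (-0.47) and Eif4ebp2 (-0.95). The S6 kinase genes Rps6kb1 (0.11) and Rps6kb2 (0.052) and the cap-binding repressor Eif4ebp1 (0.22) did not pass. Without Aalter-1, 8 were lower and 1 was higher, with a median of -0.62, beside 28.5% and 27.8% of all genes. With length and GC trends removed, 5 of the 12 were lower and 1 was higher, beside 12.5% and 13.4% of all genes.

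**Figure D5:**
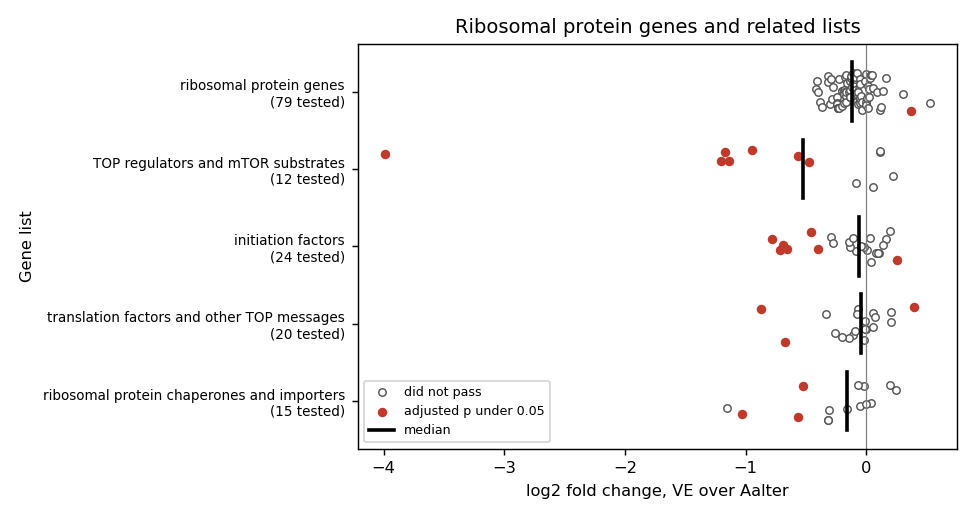
Log2 fold change of VE over Aalter for ribosomal protein genes and 4 lists of related genes, each point a gene, filled where the adjusted p was under 0.05, with the median of each list as a bar. The 79 ribosomal protein genes sit in a narrow band around -0.12 with 1 filled point. In the list of TOP regulators and mTOR substrates, which also holds Myc, 7 of 12 genes are filled and below 0, Myc lowest.

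A list of 15 genes, mostly for proteins that escort ribosomal proteins to the nucleus or hold them before assembly, was tested. Of these 0 rose and 3 fell in edgeR, with a median log2 fold change of -0.16. The share that fell was near the 19.5% of all genes. Without Aalter-1 3 were higher and 7 lower, beside 27.8% and 28.5% of all genes. DESeq2 called 4 lower and limma-voom 2, both with 0 higher, where they called 20.2% and 17.8% of all genes lower. At an unadjusted p under 0.05 there were 7 lower and 0 higher, for which a share of all genes is not given. Aar2, which was in the list but is not an established ribosomal protein chaperone, fell by 1.03 ± 0.24 (adjusted p = 0.0199). Aamp fell by 0.57 ± 0.16 (adjusted p = 0.0315) and Ipo5, an importin for ribosomal proteins, by 0.52 ± 0.16 (adjusted p = 0.0411). With length and GC trends removed, Aar2 alone passed, where 12.5% of all genes were lower. The chaperones Bccip (0.19), Tsr2 (-0.31) and Nap1l1 (-0.020) did not pass.

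Markers of several cell types moved with the groups, beside 12.8% of all tested genes higher and 19.5% lower in VE. Without Aalter-1 these shares were 27.8% and 28.5%, and with length and GC trends removed 13.4% and 12.5%. Of 8 neutrophil genes 6 were higher in VE, and their summed level was between 35529 and 43531 CPM in VE and between 24988 and 29462 CPM in Aalter, though with length and GC trends removed 3 were higher. Plasma cell genes, 2 of 5 higher, summed to between 3279 and 6144 CPM in VE and between 715 and 2685 CPM in Aalter. The upper value is Aalter-1 alone, since Aalter-2 and Aalter-3 had 715 and 754 CPM, and without Aalter-1 all 5 genes were higher. Of 5 B cell genes 3 were lower, with sums of 173 to 199 CPM in VE and 226 to 257 CPM in Aalter. T cell genes had 1 of 5 higher and 3 lower, with sums of 449 to 523 CPM in VE and 518 to 721 CPM in Aalter. Macrophage genes had 2 of 5 higher and 2 lower, with sums of 382 to 439 CPM in VE and 364 to 416 CPM in Aalter. Lung epithelial genes had 1 of 5 higher and 1 lower, with sums of 128 to 140 CPM in VE and 204 to 375 CPM in Aalter. All 3 tested erythroid genes of 5 were lower, with sums of 202 to 276 CPM in VE and 317 to 457 CPM in Aalter, and the erythroid gene Slc4a1 was at 0 in VE-1 and VE-2. Without Aalter-1, the neutrophil, T cell, macrophage and erythroid counts were as in all 6 libraries, B cell genes had 1 higher and 4 lower, and lung epithelial genes 1 higher and 2 lower. The part of these shifts in the ribosomal protein levels was not tested. In bulk material fewer cells of a type and less RNA per cell cannot be told apart.

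Whether genes with the pyrimidine motif near the start differed from those without was described from the 58 tested genes with a start region. The 19 genes with CTTTC there had a median log2 fold change of -0.13, and the 39 without it -0.097. Without Aalter-1 the medians were -0.29 and -0.25.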

How the data were processed

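The authors deposited 1 table, which holds estimated counts for each gene in every library, per the file headers. The counts need not be whole, and 22.5% of the ribosomal protein genes had a non-whole value in at least 1 library. Libraries were made with an mRNA kit, per the labels' protocols, and reads mapped to mm10, per the submitters' processing notes. The aligner, counter and strand handling were not given in the sources used here, and reads of near-identical copies may have been split. Counts were rounded and tested on all 6 libraries with edgeR 4.0.16 in R 4.3.3, using TMM, filterByExpr (minimum count 10) and quasi-likelihood fits, with group as sole term and calls at an adjusted p under 0.05. Fold changes are VE over Aalter. GENCODE vM21 gave coordinates, length (median of a gene's basic protein-coding transcripts) and GC content. Trends were splines with 5 degrees of freedom, used as offsets. Alternatives were RLE, library-size and family-sum scaling, TMM without the family, DESeq2 1.42.0, limma-voom 3.58.1, other filters, a replicate block, trend removal and libraries left out. Named genes were the 6 highest per kilobase, the called genes, the 3 highest and 3 lowest fold changes, a list of known genes, and up to 2 per related list. The ribosomal protein genes, related lists and tests were chosen with earlier results of these data known. A gene that the rule for named genes takes is not reported here.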

Additional observations from a re-analysis of the deposited data

How the results depend on the processing

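DESeq2, limma-voom, RLE scaling, TMM without the family and both filters on low counts kept 1 ribosomal protein gene higher and 0 lower. Under library size alone, which moved the median of all genes from 0.023 to -0.12, 495 genes were higher and 3231 lower, 0 and 1 of them ribosomal; related lists had 0 higher. With summed ribosomal protein counts as library size, 32 genes were higher and 1025 lower, 0 ribosomal protein genes were higher, and related lists had 0 higher and 6 lower. Related lists had 1 higher under TMM without the family and 1 without a filter, against 2 higher and 18 lower in all 6 libraries. Deviations from the group mean had r = 0.299, 0.272 and 0.0532 between same-numbered libraries over all tested genes. Between unlike-numbered libraries r ran from -0.289 to 0.171. Over the ribosomal protein genes the same-numbered r were -0.648, -0.165 and -0.604. With 3 libraries a group, these values cannot settle whether the numbers pair the libraries. The replicate block gave 1193 genes higher and 2074 lower, 0 ribosomal protein genes higher (Rps27l adjusted p = 0.0846) and 0 in related lists. Leaving out 1 library in turn gave 2 to 3561 genes higher and 177 to 3652 lower, 0 to 1 and 0 to 46 of them ribosomal, 0 to 9 and 1 to 35 in related lists, and 0 to 11 both higher and lower relative to the family total. Without Aalter-1 and VE-1, 3404 genes (27.2%) were higher and 3559 (28.4%) lower. Of 79 ribosomal protein genes 2 were higher and 51 lower, and related lists had 5 and 34. Relative to the family total 9 and 7 ribosomal protein genes passed, for which a share of all genes is not given. With length and GC trends removed, 1569 genes were lower, ribosomal protein genes had 0 higher and 1 lower, the medians were -0.39 (family), -0.35 (large subunit) and -0.49 (small subunit), related lists had 10 lower, and 1 gene was lower relative to the family total. With length alone removed, 0 were higher and 9 lower, the medians were -0.40, -0.40 and -0.45, related lists had 5 higher, and Rps27l was -0.31 (-0.59 with both removed). The cause was not tested. The share of counts differed by -2.24 to -0.853 percentage points with each library left out and by -1.17 without immunoglobulin genes. With 3 libraries a group and a common biological coefficient of variation of 0.210, small shifts could go uncalled.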
